A study of Mus musculus with 10 samples.

Results

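The genes described are 4 serine proteases of the digestive juice, Prss2, Cela1, Cela2a and Ctrl, and the trypsin inhibitor Spink1. They were chosen by gene symbol, as every probe set of either chip whose only annotated gene is 1 of these 5. All 5 genes were measured, by 6 probe sets: 2 on chip A and 4 on chip B, out of 6137 genes with a probe set of their own. The samples were white adipose tissue, hypothalamus, liver, muscle and pancreas from adult female C57BL/6 mice, with no treatment, genotype or exact age named in the labels. For each tissue 1 array of chip A and 1 of chip B were used, Affymetrix designs read in a single colour, which gave 10 arrays and 1 value per tissue for each probe set. The labels do not say how many mice gave each RNA. The titles of the adipose arrays name a preconfluent state, while their source is labelled white adipose tissue, and the latter is used here.

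The acinar cells of the exocrine pancreas make proteases as inactive zymogens, pack them into granules and release them into the gut when a meal arrives. In the gut, enteropeptidase cleaves trypsinogen, and the trypsin formed then activates the other zymogens. Spink1, a small protein with a Kazal domain, is packed with the zymogens and blocks trypsin that forms too early inside the gland. Prss2 encodes a trypsinogen, Ctrl a chymotrypsin-like protease, and Cela1 and Cela2a are elastases of the chymotrypsin family. In humans, CELA1 is not made in the adult pancreas, whereas the mouse gene is.

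As these genes were all highest in pancreas, the promoters of 4 of them, Prss2, Cela1, Cela2a and Ctrl, are shown here as RefSeq gives them for GRCm38.p6. Each run holds 250 bases before and 50 bases from the annotated start, in the direction of the gene. Capitals mark exact matches, on either strand, to CACCTG, the E-box form that the acinar factor PTF1 is known to bind, to TTTCCC, the core bound by its partner RBPJL, to AAGGTCA, a core of NR5A2 sites, and to TATAAA, the TATA box. No match overlaps another.
Prss2, chr6:41521526-41521825, plus strand: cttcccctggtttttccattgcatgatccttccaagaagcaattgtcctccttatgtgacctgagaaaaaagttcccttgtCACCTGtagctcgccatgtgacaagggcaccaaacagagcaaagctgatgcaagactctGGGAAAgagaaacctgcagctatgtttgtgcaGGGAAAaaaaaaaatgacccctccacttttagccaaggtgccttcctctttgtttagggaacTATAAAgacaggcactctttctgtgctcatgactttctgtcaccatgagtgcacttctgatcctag
Cela1, chr15:100687871-100688170, minus strand: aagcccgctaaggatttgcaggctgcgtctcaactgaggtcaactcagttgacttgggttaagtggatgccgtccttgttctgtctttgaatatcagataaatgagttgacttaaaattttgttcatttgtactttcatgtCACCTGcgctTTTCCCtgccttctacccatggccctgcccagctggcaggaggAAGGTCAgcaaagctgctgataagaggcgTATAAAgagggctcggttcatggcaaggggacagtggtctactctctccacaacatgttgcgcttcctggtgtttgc
Cela2a, chr4:141825956-141826255, minus strand: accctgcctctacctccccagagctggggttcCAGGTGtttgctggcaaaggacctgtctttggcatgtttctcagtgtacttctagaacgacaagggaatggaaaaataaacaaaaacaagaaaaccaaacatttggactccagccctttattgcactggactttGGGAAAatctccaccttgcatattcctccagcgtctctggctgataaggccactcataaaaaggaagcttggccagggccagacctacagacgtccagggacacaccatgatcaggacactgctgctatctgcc
Ctrl, chr8:105933813-105934112, minus strand: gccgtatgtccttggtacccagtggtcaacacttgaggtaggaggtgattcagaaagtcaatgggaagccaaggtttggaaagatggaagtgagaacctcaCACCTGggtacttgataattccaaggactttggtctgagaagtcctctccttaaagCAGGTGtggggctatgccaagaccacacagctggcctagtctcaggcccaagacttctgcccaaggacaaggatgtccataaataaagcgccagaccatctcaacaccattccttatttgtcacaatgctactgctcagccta

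CACCTG was present in all 4 of these promoters and in 20.2% of the 32851 promoters of the same length. TTTCCC was present in 3 of the 4, all but Ctrl, and in 25.2% of all promoters. TATAAA was found in those of Prss2 and Cela1, with its first base at -16 and -27, and in 13.6% of all promoters, while AAGGTCA was found in that of Cela1, at -56, and in 4.72% of all. Among 12 promoters of 11 other acinar genes measured here, CACCTG was in 6, TTTCCC in 4, AAGGTCA in 2 and TATAAA in 7. In the Cela1 promoter CACCTG at -109 and TTTCCC at -99 stand on the same strand with 4 bases between them. That arrangement, CACCTGNNNNTTTCCC on either strand, was looked up after it had been seen, and occurs in 5 of the 32851 promoters, of which 1 other, that of Prss1, belongs to the acinar genes listed. These matches describe the letters in this window and not sites in use.

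Values are scaled intensities, the deposited linear values after each array was brought to a common trimmed mean. The deposited values can lie below 0, so each array was given a noise bound, the size of its 1st percentile, and a value under it has no order. The bounds of chip A were 258 in hypothalamus, 295 in liver, 390.1 in white adipose tissue, 1065 in muscle and 1166 in pancreas. Those of chip B, in the same order, were 649.5, 792, 918, 1639.5 and 2608. With 1 array per tissue and chip there was no replicate and no test was possible, and this small number of arrays sets the precision. Repeats were limited to probe sets present on both chips. Of these, 15 mouse sets lay a mean of 0.68 log2 units higher on chip B with an SD of 0.38 over 17 pairs of values above both bounds, and 16 control sets of mouse genes a mean of 0.52 higher with an SD of 0.28 over 37 pairs. Levels are compared between tissues within a probe set and not between probe sets, apart from the distances between patterns and the sums of acinar values below. In such whole tissues, fewer cells of a type and less RNA per cell cannot be told apart.

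All 6 probe sets of the 5 genes had their highest value in pancreas and above its noise bound, which 11.9% of all probe sets passed there. To call a probe set for a tissue, values under 175 on chip A or 123 on chip B were set to that floor, and a lead of 4 times or more over each of the remaining tissues was required. All 6 were called for pancreas, where 2.10% of the 6523 probe sets of chip A and 5.05% of the 6534 of chip B were called. The floored value in pancreas exceeded the highest of the other 4 tissues by a median of 7.42 log2 units over the 5 genes, against a median of -0.47 over all 6137 genes. Here Cela1 stands by its chip B probe set. The size depends on the floor, which lies under the noise bounds. With the bounds in its place, the median over the 5 genes was at least 52.9-fold.

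Trypsinogen, the zymogen at the head of the cascade, was read by 1 probe set of chip B, x04574_s_at. Prss2 read 193067 in pancreas, -694 in muscle, -207 in liver, -57.6 in hypothalamus and 4.02 in white adipose tissue. Pancreas stood apart, and the other 4 values were all under their noise bounds, 3 of them below 0. The pancreas value of Prss2 was at least 118-fold that of muscle, 210.2-fold that of white adipose tissue, 244-fold that of liver and 297-fold that of hypothalamus. These lower bounds differ because the noise of the arrays differs, and they give no order to the 4 tissues.

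The name of the Prss2 probe set ends in s, the maker's mark for probes that can be shared by similar sequences. The chip B probe sets of Cela1, Cela2a and Spink1 carry the same mark, so the limit holds for them too. Prss2 lies in a cluster of trypsinogen genes, next to Prss1 and near Prss3 in the GRCm38.p6 annotation. Neither neighbour had a probe set with its symbol alone, so messages of related trypsinogens may be part of the signal. Try4, another trypsinogen of the list of acinar genes, had a separate probe set on chip A, which read 54535 in pancreas, 152 in muscle, 41.9 in liver, 14.9 in hypothalamus and 12.1 in white adipose tissue. Its pattern was like that of Prss2, at least 51.2-fold higher in pancreas than elsewhere, with no other tissue above its bound.

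Chymotrypsin-like protease was read on chip A by AA244542_at, whose name carries no mark of shared probes. Ctrl read 30034 in pancreas, -199 in muscle, -59.9 in liver, -18.9 in hypothalamus and -101 in white adipose tissue. All 4 values outside pancreas were thus below 0. The pancreas value of Ctrl was at least 28.2-fold that of muscle, 77.0-fold that of white adipose tissue, 102-fold that of liver and 116-fold that of hypothalamus.

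The elastase Cela2a, read by X04573_s_at on chip B, had 158083 in pancreas, 203 in muscle, 649 in liver, 69.5 in hypothalamus and 55.2 in white adipose tissue. Its liver value was the highest outside pancreas, 0.41% of the pancreas value, and lay under the liver bound of 792, so it was not told apart from the others. The pancreas value was at least 96.4-fold that of muscle, 172-fold that of white adipose tissue, 199.6-fold that of liver and 243-fold that of hypothalamus. A further probe set of chip A is annotated with Cela2a and a second gene and is not counted among the 6.

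Cela1, the other elastase, was the single gene with a value above noise outside pancreas, and the only one with a probe set on each chip. Its probe set of chip B read 86672 in pancreas, 875 in muscle, 766 in liver, 350.4 in hypothalamus and 1444 in white adipose tissue. The name of this probe set ends in s, so messages of similar sequences may be part of these values. The value in white adipose tissue was 1.57 times that array's noise bound and 1.67% of the pancreas value, which made pancreas 60.0-fold higher. The difference of 1094 from hypothalamus was above the larger noise bound of that pair, 918. The values of Cela1 in muscle, liver and hypothalamus were all under their bounds, and pancreas was at least 52.9-fold, 109-fold and 133-fold above these in turn.

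On chip A, M27347_rc_at gave Cela1 a much weaker contrast: 2492 in pancreas, 185 in muscle, 118 in liver, 10.9 in hypothalamus and -6.03 in white adipose tissue. The pancreas value was 2.14 times its noise bound, and the 4 others were under theirs, white adipose tissue included. By this probe set Cela1 was at least 2.34-fold higher in pancreas than in muscle, 6.39-fold higher than in white adipose tissue, 8.44-fold higher than in liver and 9.65-fold higher than in hypothalamus. Both probe sets carry the same source sequence in the platform annotation and both were highest in pancreas, and a value above noise in white adipose tissue was read by that of chip B alone. The chip A name carries rc and the chip B name does not, so the 2 may not read Cela1 alike. Why their values differ was not tested. On chip A the noise bound of white adipose tissue was 15.7% of the pancreas value, so a signal of 1.67% was not detectable there.

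Spink1, the inhibitor, was also highest in pancreas. Its probe set of chip B, X06342_s_at, read 49250 in pancreas, 572 in muscle, 175 in liver, 123 in hypothalamus and 199 in white adipose tissue. Muscle was nominally the highest of the others, at 1.16% of pancreas, but all 4 were under their noise bounds. The pancreas value of Spink1 was at least 30.0-fold that of muscle, 53.6-fold that of white adipose tissue, 62.2-fold that of liver and 75.8-fold that of hypothalamus.

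**Figure D1:**
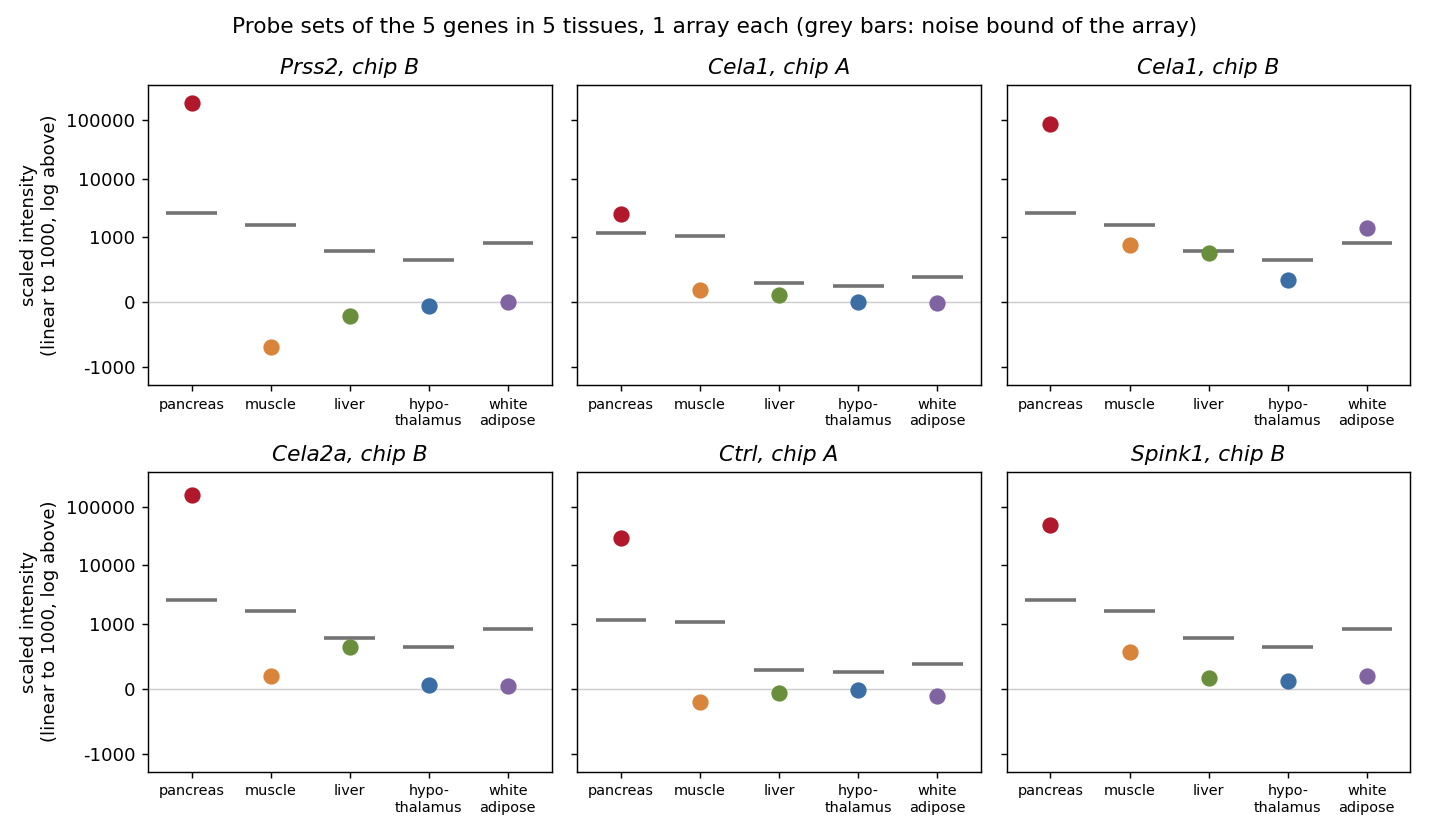
Scaled intensity of each probe set of the 5 genes (vertical axis, linear near 0 and logarithmic further out) in the 5 tissues, 1 array per point, with the noise bound of each array as a grey bar. Every probe set was above the bound in pancreas, and outside pancreas only Cela1 of chip B in white adipose tissue, at 1444 against 918, was above it.

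**Figure D2:**
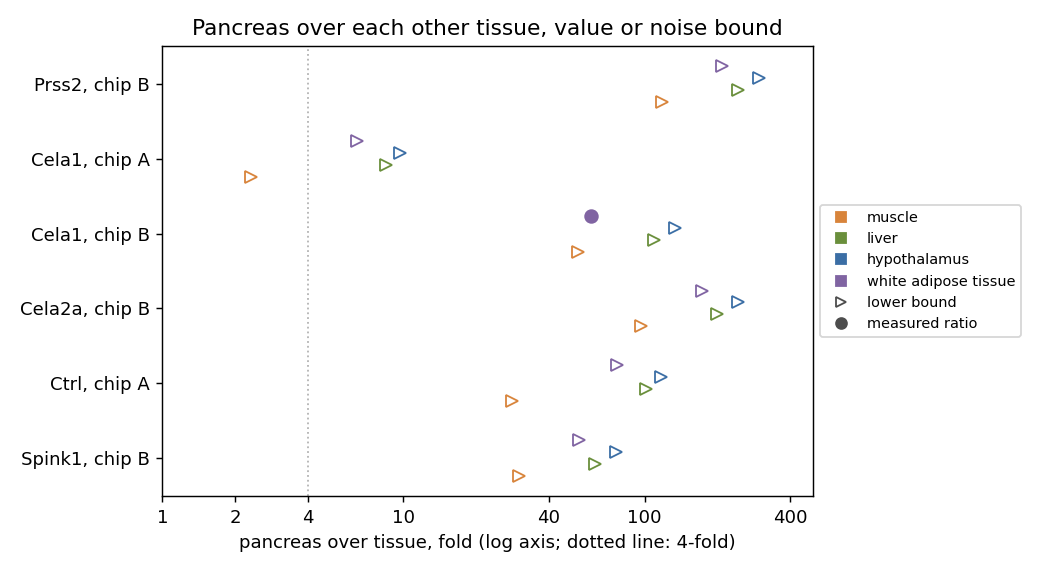
Pancreas value over that of each other tissue, or over its noise bound where the value was lower (horizontal axis, logarithmic), for the 6 probe sets. Open triangles are lower bounds, the filled point is the measured ratio of 60.0 for Cela1 on chip B against white adipose tissue, and the smallest bound is 2.34 for Cela1 on chip A against muscle.

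Across the 6 probe sets, 24 values were taken outside pancreas, of which 1 was above its noise bound and 8 were below 0. Of all probe sets, 13.9% were above the bound in muscle, 25.7% in liver, 31.0% in hypothalamus and 24.8% in white adipose tissue. Of 36 pairs of these tissues, 6 for each probe set, 1 was told apart, white adipose tissue above hypothalamus for Cela1, where the higher value had to pass its bound and the difference the larger bound of the pair. For the other genes no order can be given to muscle, liver, hypothalamus and white adipose tissue. The noise bound came to 0.849% of the pancreas value for Prss2 and 3.33% for Spink1 in muscle, and to 0.336% and 1.32% in hypothalamus. Signals below such shares were not detectable here.

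The hybridisation spikes give another measure of scale. Their geometric mean over 9 probe sets was 4.72 times that of muscle in the deposited pancreas values of chip A and 3.45 times on chip B, and the ratio to the other tissues lay between 3.80 and 6.23. With arrays scaled to these spikes, Prss2 was at least 34.2-fold higher in pancreas than in the other tissues, Cela2a at least 28.0-fold, Cela1 of chip B at least 10.8-fold, Spink1 at least 8.72-fold and Ctrl at least 5.98-fold. For Cela1 of chip A no fold can be given under that scaling, since the noise bound of another array was above its pancreas value, and it was not called.

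Most other measured genes of the acinar cell were called for pancreas too. Of 37 listed acinar enzymes and secreted proteins, 19 were measured, and 18 were called for pancreas, among them all 5 genes described here. Of the 14 others, 13 were called, where 3.29% of all genes were, and their floored values exceeded the highest other tissue by a median of 7.84 log2 units. This size too depends on the floor. By the noise bounds, the median was at least 41.5-fold over the 12 of them above the pancreas bound. Rnase1, a secreted ribonuclease, read 168491 in pancreas, and the amylase Amy2a5 read 168212, each at least 103-fold higher than elsewhere. Dnase1, a deoxyribonuclease, was the exception, at 109 in pancreas and under the noise bound everywhere. Reg3b, a secreted lectin, was called but read 946, under the pancreas bound.

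The nearest patterns were those of amylases, a ribonuclease, zymogen granule and lipase-related proteins, kallikreins, Reg2, Tff2 and Chst2. Likeness was measured as the distance between floored log2 values over the 5 tissues, each centred on its mean, among the genes of the same chip. Amy2a5 was nearest to Prss2, at 0.18 log2 units where the median over 1759 genes was 9.50, before Amy2b, another amylase, at 0.97 and Rnase1 at 1.23. Ctrl was nearest to Cuzd1, a protein of zymogen granules, at 0.12, to Clps, the cofactor of pancreatic lipase, at 0.22, and to Pnliprp2, a lipase-related protein, at 0.24, with a median of 6.64 over 4774 genes. Spink1 was nearest to the kallikrein Klk1b5 at 0.65, before the sulfotransferase Chst2 at 1.60 and the trefoil peptide Tff2 at 1.64. Cela2a was nearest to Amy2b at 1.97, the amylase Amy2a1 at 2.01 and the kallikrein Klk1b26 at 2.08. Cela1 of chip B was nearest to another probe set of Klk1b5 and to Reg2, a secreted lectin, both at 1.47, and then to Chst2 at 1.71. Where values lie at the floor these distances rest mainly on the value in pancreas.

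White adipose tissue was examined for the other acinar genes, since Cela1 was above noise there. Of the 19 acinar genes, 2 were above the bound in white adipose tissue, Cela1 and Cel, the bile salt-dependent lipase, which read 478 against a bound of 390.1, 1.59% of its pancreas value. Among the genes under it, Zg16, also of the acinar list, came closest at 367, 0.94 times the bound. Spink1 read 199, Cela2a 55.2, Prss2 4.02, Amy2a5 -23.1, Rnase1 -403 and Clps -473. Of the 19 values 8 were below 0, and those of Clps and Klk1, both on chip A, were below 0 by more than the size of the bound, at -1.21 and -1.14 times it. On chip B, where Cela1 stood at 1.57 times the bound, the lowest acinar gene was Rnase1, at -0.44 times it. So few values cannot show how often noise reaches that far. With the noise bound at the 0.5th percentile, 1172 on the chip B array of white adipose tissue, the Cela1 value was still above it. The 19 values summed to 1160 in white adipose tissue, 238 in muscle, -229 in liver and -297 in hypothalamus, and without the 5 genes described here to -441, -519, -1551 and -763. These sums add probe sets of both chips and give no order to the tissues. Cela1 alone read 1444 in white adipose tissue, more than the sum there. Most of the values in these sums were under their bounds, and the part of acinar cells in the Cela1 value was not tested. In muscle, liver and hypothalamus none of the 19 was above its bound.

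**Figure D3:**
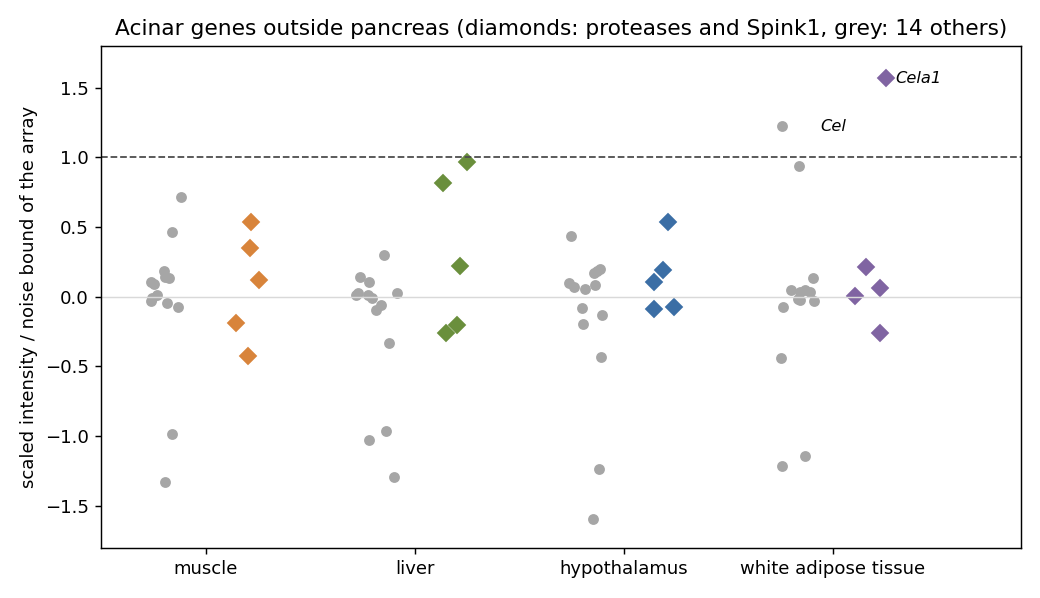
Scaled intensity divided by the noise bound of the array (vertical axis) for the 19 measured acinar genes in the 4 tissues other than pancreas, the 5 genes described here as coloured diamonds and 14 others as grey points, with Cela1 by its chip B probe set. The dashed line is the bound, passed by Cela1 at 1.57 and Cel at 1.23 in white adipose tissue.

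A list of acinar regulators, which also holds the gut enzyme gene Tmprss15, had 10 measured genes. Of these, 5 were above the pancreas noise bound, against 16.1% of all genes, and 2 were called for pancreas, against 3.29%. Cckar, the receptor for cholecystokinin, the hormone that triggers enzyme release, was called at 5039.7, at least 4.73-fold higher. That lower bound was set by muscle, to which the spike ratio of chip A was about the same, 4.72. Gata4, a transcription factor, was called at 1292, but its lead of 1130 over white adipose tissue was under the pancreas bound, so the tissues were not told apart. Xbp1, a regulator of the secretory pathway, was 2.37-fold above muscle, and Vamp8, a protein of granule release, was 1.48-fold above liver. Both leads were smaller than the spike ratios of these arrays of chip A, 4.72 to muscle and 3.80 to liver. Nr5a2, an acinar transcription factor, read 2720.0 in pancreas and 1858 in liver, which were not told apart. Tmprss15, which encodes enteropeptidase, the gut enzyme that activates trypsinogen, was under the noise bound in all 5 tissues and read -87.1 in pancreas. It is also counted among the S1 genes below.

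Of 8 measured duct genes, 3 were above the pancreas bound and 1 was called, the mucin Muc1, at least 4.16-fold higher. That lower bound, set by muscle on chip A, was under the spike ratio of 4.72. The keratin Krt8 read 3409.6 in pancreas and 2787 in liver, which were not told apart. Of 14 islet genes, 2 were above the pancreas bound and 2 were called, Ins2, insulin, at least 10.1-fold higher, and Gcg, glucagon, at 757, under the bound. Ppy, pancreatic polypeptide, read 1964 in pancreas and 1665 in muscle, which were not told apart.

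Most measured proteases of the same family were not called for pancreas. Apart from Klk1, which is also in the acinar list, 47 listed genes of the trypsin-like S1 family were measured, of which 9 were called for liver, 6 for pancreas and none for muscle, hypothalamus or white adipose tissue, while 32 were called for no tissue. Over all genes, 2.79% were called for liver and 3.29% for pancreas. The genes called for liver were F2, F7, F9, F10, Proc, Plg, Cfb, Cfi and the membrane protease Hpn. F2, prothrombin, read 27480 in liver and 2984 in pancreas, and Plg, plasminogen, 19790.4 and 448. Of the 6 called for pancreas 4 were tissue kallikreins, with Klk1b5 62.0-fold, Klk1b26 at least 32.7-fold and Klk1b9 at least 20.3-fold higher by probe sets of family design, beside Klk1 at least 42.2-fold, Klk1b16 and Prss8. Hgf, a growth factor without protease activity, was called for pancreas at 759.5, under the bound. Nrp1, a receptor that is no protease, is in this list by mistake and was called for no tissue.

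Of 19 measured protease inhibitors other than Spink1, 8 were called for liver, against 2.79% of all genes, none for pancreas, against 3.29%, and 11 for no tissue. Itih1, a heavy chain of the plasma inter-alpha-trypsin inhibitor, read 24214 in liver and 2690.2 in pancreas, and Serpina1a, an inhibitor of elastase, 28662 and 3951. After Spink1 the largest pancreas fold was that of Wfdc2, at least 1.79-fold, a lower bound set by muscle on chip A and under the spike ratio of 4.72. Spint1, a Kunitz inhibitor of membrane proteases, read 1377 in pancreas and 497 in muscle, which were not told apart.

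**Figure D4:**
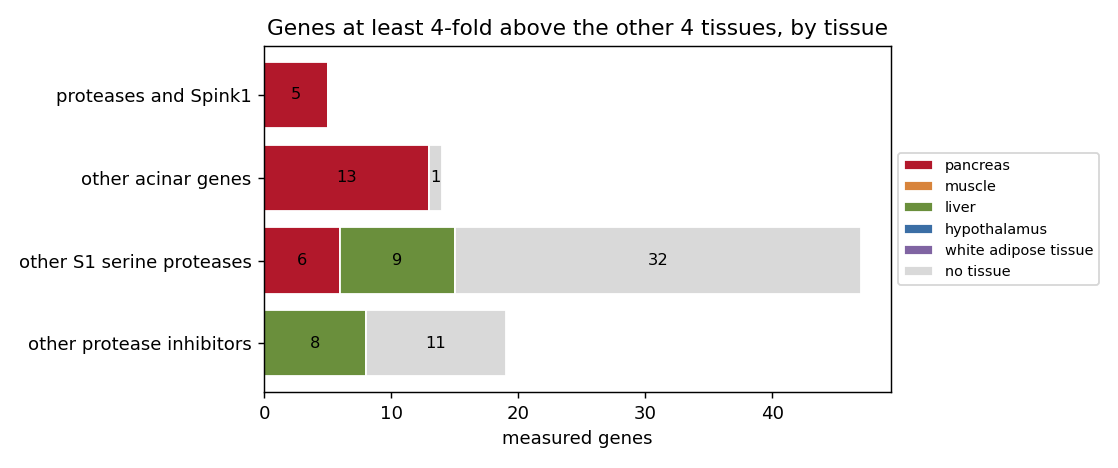
Number of measured genes (horizontal axis) called at least 4-fold above the other 4 tissues, by tissue, for the 4 proteases with Spink1, 14 other acinar genes, 47 other genes of the S1 list and 19 other protease inhibitors. Pancreas took all 5 and 13 of the acinar genes, and liver took 9 proteases and 8 inhibitors.

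Of the 5 defining genes listed for each other tissue, all were called for muscle and for white adipose tissue, 4 for liver and 4 for hypothalamus. Ckm, the muscle creatine kinase, was called for muscle, Apoh, a plasma glycoprotein, for liver, Oxt, oxytocin, for hypothalamus and Adipoq, adiponectin, for white adipose tissue. These 4 were under the noise bound in pancreas, but 3 other defining genes were above it. Alb, albumin, the liver gene not called, read 26266 in pancreas and 18122 in liver, 1.45-fold higher in pancreas. Stmn3, a neuronal protein, read 3402 in pancreas and 13021 in hypothalamus, and was called for no tissue. Retn, resistin, read 1379 in pancreas and 15100.2 in white adipose tissue, for which it was called. The other 4 liver genes, Apoh, Hpd, Pzp and Serpina6, were under the bound in pancreas. Among genes called for liver in the S1 and inhibitor lists, F2, Itih1, Itih2 and Serpina1a were above the chip B pancreas bound of 2608. Itih2 read 3739 in pancreas. Hpn, at 1453, was above that of chip A, 1166, and the rest were under theirs. Of 2 measured blood genes 1 was above the pancreas bound, Hba-a1, a globin, at 43774 and 1.83-fold above muscle. Of 6 immune genes 2 were above it, Ptprc, of white blood cells, at 7267 and 3.96-fold above muscle, and Lyz2, a lysozyme, at 7271 but with 10219.9 in white adipose tissue. The part of any of these cells in the results was not tested. The pancreas leads of Alb, Hba-a1 and Ptprc were smaller than the spike ratios of the same arrays.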

How the data were processed

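Biotin-labelled cRNA was made from 10 µg of Trizol-extracted total RNA, per the labels' protocols. The authors deposited intensities, linear whole numbers of which 17.1% to 38.8% per array lie below 0. For the software, background method and presence calls, the status is "not given in the sources used here". Trimmed means of the deposited arrays, without controls, lay between 491 and 499.5.

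After removal of the 61 control probe sets of each chip, arrays were brought to the mean of their chip's 5 trimmed means (2% off each end). The floor was the median of the 5 array medians. Folds divide by the value or, where higher, the noise bound, and are then lower bounds. Gene names came from the platform annotation, updated by gene identifier from the GRCm38.p6 table, which held 7525 of 7542 probe sets with 1 gene. In lists, the probe set ranking highest by mean floored log2 value stood for its gene. Named genes are the 5 genes, the 4 of each list with the largest pancreas fold, the 3 nearest patterns of each gene and 4 tissue controls. Other genes named (such as Try4, Cel, Dnase1, Reg3b, Gata4, Gcg, Tmprss15, F2, Plg, Itih1, Serpina1a, Stmn3, Retn, Hba-a1, Ptprc and Lyz2) were chosen after their values were seen. Genes, lists and motifs were chosen with earlier results of these data known. Python 3.11.15 and pandas 2.3.3 were used, and calling was tested on simulated data. Alternatives covered scaling, floor, fold rule, noise bound and probe set design.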

Additional observations from a re-analysis of the deposited data

Results flagged for a closer look

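A probe set of chip A that the annotation gives to Cela2a together with a second gene, and which therefore has no name here, carried signal outside pancreas that no comparison above used. It read 38287 in pancreas and 2709.9 in muscle, 1077 in liver and 303 in hypothalamus, each above the noise bound of its array, and 122 in white adipose tissue, under it. These values were 7.08%, 2.81% and 0.79% of the pancreas value in muscle, liver and hypothalamus, and pancreas was 14.1-fold above muscle. Its name carries the mark of a gene family. The probe set of Cela2a alone was under the noise bound in the same 3 tissues on chip B.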

How the results depend on the processing

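All 6 probe sets stayed called with 75th percentile scaling, deposited values, quantile normalization, the floor at the 75th percentile and the 8-fold and 2-fold rules, and 5 were called with spike scaling and with the noise bound as floor. The deposited arrays already had nearly equal trimmed means, so the setting with deposited values could change little. Without probe sets of relaxed design, 2 probe sets were left, Ctrl and Cela1 of chip A; these 2 were called and above the pancreas bound, 0 values were above noise outside pancreas, and 4 of 4 acinar genes left were called in place of 18 of 19. With the noise bound at the 2nd percentile, 3 values were above noise outside pancreas, with Cela1 and Cela2a in liver added. At the 0.5th percentile, Cela1 of chip B in white adipose tissue alone was above it. With quantile normalization 0 pairs of tissues were told apart. Of 35 alternative folds, 9 moved by over 1.5 times. The Prss2 fold ranged from 34.2 to 150.5, Cela2a from 28.0 to 123, Cela1 of chip B from 10.8 to 60.0 and of chip A from 1.77 to 3.98, Ctrl from 5.98 to 38.7 and Spink1 from 8.72 to 38.4. The lowest were with spike scaling, except for Cela1 of chip A, which had no fold there. No paired analysis was possible because each tissue had 1 array per chip. Signals under the noise bounds were beyond reach.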
